A study of Arabidopsis thaliana with 18 samples.

Results

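JAL23 (AT2G39330) and the genes AT1G54020, AT3G28220, AT2G20870 and AT4G17470 were chosen by their measured intensities, because their transcripts stood higher in mock treated plants of both mutants than in mock treated wild type. Each is read by 1 probe set, so the group has 5 members among the 22746 probe sets of the Affymetrix ATH1 array that are not array controls, and among the 13350 genes that the annotation names for a probe set of 1 gene. The choice was made on the measured values of the mock treated arrays, so the mock levels below are a description, and so are the safener responses, which use the same arrays. The differences in the 3 comparisons among safener treated plants use no mock array, and these were tested. Their errors come from a fit to all 18 arrays, mock arrays included, so the tests are not fully independent of the choice. The annotation used here gives JAL23 the name jacalin-related lectin 23, and the other 4 genes carry a locus code without a described function, so no role is given for them.

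RNA came from rosette leaves of Arabidopsis thaliana at an age of 4 weeks, on 18 arrays, 3 for each of 6 groups. The groups were tga2tga3tga5tga6 plants sprayed with safener or mock, sid2-2 plants sprayed with safener or mock, and wild type Col0 plants sprayed with safener or mock. The safener spray held mefenpyr (5 mM) and isoxadifen (7.2 mM) in a formulation with an emulsifier. The mock spray held the DMSO in which the safeners had been dissolved, and whether it also held the emulsifier is not given in the sources used here. The time to harvest and the ecotype of the mutants are not given either, and the genes that the mutants lack were not analysed here, so the genotypes rest on the labels.

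Safeners are chemicals that raise the capacity of crop plants to detoxify herbicides. TGA factors are basic leucine zipper proteins that switch on genes in response to salicylic acid, together with the coactivator NPR1, and also in response to xenobiotics, and they take part in the crosstalk by which salicylic acid restrains jasmonate and ethylene responses. The sid2-2 mutant lacks a functional isochorismate synthase 1, which makes most of the salicylic acid formed under stress. Jacalin-related lectins are carbohydrate-binding proteins, and in the Brassicaceae several of them associate with PYK10, a beta-glucosidase stored in bodies of the endoplasmic reticulum (ER bodies).

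The deposited intensities are on a linear scale with the median of each array at 200, and 31.5% of the values are blank, which marks no listed level and not a zero. An array listed between 14627 and 16408 of the 22746 probe sets. Arrays of one group correlated with each other at r between 0.977 and 0.994 over probe sets, and no array was left out. Of the 12 leaf markers, the annotation named 3, and all 3 were listed on all 18 arrays, among them rubisco activase (RCA) with group means between 4013 and 5154. Of the 9 root markers it named PYK10 alone, and of the 9 flower markers 0, so other organs were not checked.

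Under mock treatment JAL23 had intensities of 589, 415 and 730 in tga2tga3tga5tga6 and 307, 450.0 and 468 in sid2-2, against 185, 154 and 130.4 in wild type. Every mutant array lay above every wild type array, in a gene chosen for higher mock levels in both mutants. From the fit on the log2 scale, JAL23 was 3.64-fold higher in tga2tga3tga5tga6 (log2 difference 1.86, SE 0.23) and 2.59-fold higher in sid2-2 (1.37, SE 0.23) than in wild type. In whole rosette leaves, more cells that hold a transcript and more transcript per cell cannot be told apart, for this and all later differences.

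The JAL23 ranges of the mutants overlapped under mock and lay apart under safener treatment. JAL23 had intensities of 423, 367 and 345 in tga2tga3tga5tga6 and 119, 112 and 69.6 in sid2-2, against 49.6, 78.4 and 62.5 in wild type. All tga2tga3tga5tga6 arrays lay above the arrays of the other genotypes, while the ranges of sid2-2 and wild type overlapped.

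AT1G54020 had 309, 196 and 341 in mock treated tga2tga3tga5tga6 and 117, 146 and 167 in mock treated sid2-2, against 33.8, 40.1 and 37.5 in mock treated wild type. The mock mutants were 7.41-fold (log2 2.89, SE 0.24) and 3.83-fold (1.94, SE 0.24) above wild type, in the order tga2tga3tga5tga6 and sid2-2. Under safener AT1G54020 had 257, 186 and 162 in tga2tga3tga5tga6 and 38.4, 36.4 and 21.3 in sid2-2, against 30.02 and 19.5 on the 2 wild type arrays that list it. As for JAL23, the safener treated sid2-2 arrays overlapped those of wild type and the tga2tga3tga5tga6 arrays did not.

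AT3G28220 had 433, 513 and 572 in mock treated tga2tga3tga5tga6 and 498, 587 and 407 in mock treated sid2-2, against 163, 87.3 and 131 in mock treated wild type. Both mutants were about equally far above wild type under mock, 4.08-fold (log2 2.03, SE 0.19) in tga2tga3tga5tga6 and 4.00-fold (2.00, SE 0.19) in sid2-2. Under safener it had 508, 474 and 440 in tga2tga3tga5tga6 and 204, 188 and 182 in sid2-2, against 71.4, 59.2 and 93.6 in wild type. The 3 safener treated genotypes formed 3 levels without overlap, with sid2-2 in the middle.

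AT2G20870 had 272, 268 and 390.3 in mock treated tga2tga3tga5tga6 and 74.8, 286 and 165 in mock treated sid2-2, against 36.8, 24.5 and 26.6 in mock treated wild type. Its mock difference from wild type was 10.6-fold (log2 3.40, SE 0.39) in tga2tga3tga5tga6 and 5.28-fold (2.40, SE 0.39) in sid2-2, and its 3 mock treated sid2-2 arrays lay far apart. Under safener it had 163, 237 and 71.1 in tga2tga3tga5tga6 and 153, 136 and 137 in sid2-2, against 26.1 and 29.5 on the 2 wild type arrays that list it. Here both mutants stayed clear of wild type under safener and overlapped with each other.

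AT4G17470 had 801, 540.0 and 1084 in mock treated tga2tga3tga5tga6 and 704, 836 and 993 in mock treated sid2-2, against 466, 309.8 and 264 in mock treated wild type. Its mock difference from wild type was 2.31-fold (log2 1.21, SE 0.24) in tga2tga3tga5tga6 and 2.49-fold (1.31, SE 0.24) in sid2-2. Under safener it had 414, 350.0 and 246 in tga2tga3tga5tga6 and 100, 148 and 125 in sid2-2, against 82.5, 100.3 and 107 in wild type. Its safener treated sid2-2 arrays overlapped those of wild type, and its tga2tga3tga5tga6 arrays lay above both.

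The share of all tested probe sets called higher under mock was 6.04% in tga2tga3tga5tga6 and 17.3% in sid2-2, where called means an adjusted p under 0.05 in limma with Benjamini-Hochberg adjustment over all probe sets tested. These shares are background to the choice of the members and nothing is read from them.

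**Figure D1:**
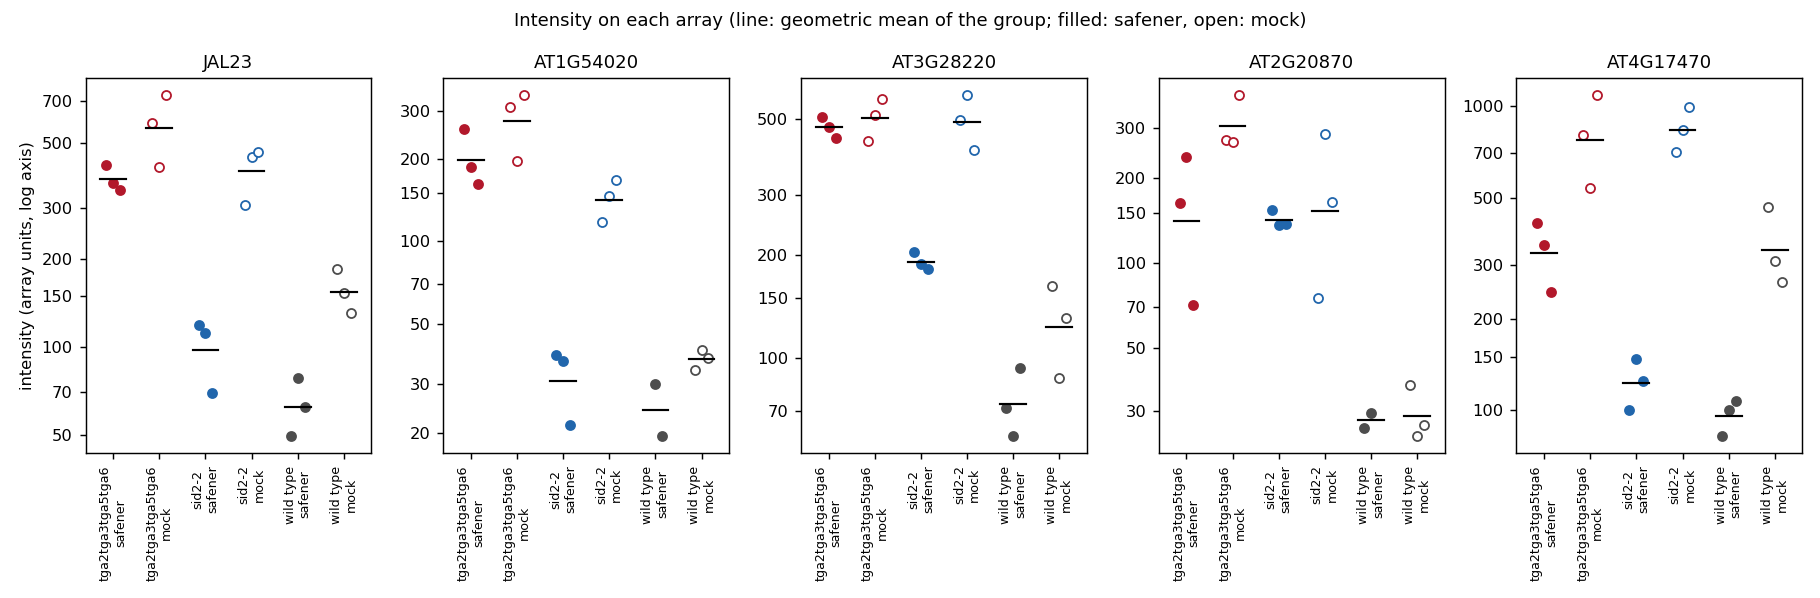
Intensity of the 5 members on each of the 18 arrays (vertical log axis, array units), by genotype and treatment, with filled points for safener, open points for mock and a line at the geometric mean of each group. Points within a group run from replicate 1 to 3, and an array with a blank has no point. In 4 panels the safener treated tga2tga3tga5tga6 points lie above those of the other safener treated genotypes, and for AT2G20870 both mutants lie above wild type.

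The first tested comparison asked whether the members differ from wild type in tga2tga3tga5tga6 when both are safener treated. All 5 were higher in tga2tga3tga5tga6, with every array above every listed wild type array, whereas 8.81% of the 14859 probe sets tested were called higher, 4.23% were called lower, and the median log2 difference was 0.05. The scaling was also changed, with each array centred on the median of the probe sets listed on all 18 arrays. The calls then split into 1119 higher and 970 lower, in place of 1309 and 628. JAL23 averaged 378 ± 40.3 in tga2tga3tga5tga6 and 63.5 ± 14.4 in wild type (SD, n = 3 each), a 6.04-fold difference (log2 2.59, SE 0.23, limma adjusted p 2.01e-07). AT3G28220 averaged 474 ± 33.8 in tga2tga3tga5tga6 and 74.7 ± 17.4 in wild type, a 6.44-fold difference (log2 2.69, SE 0.19, limma adjusted p 9.38e-09).

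AT1G54020 was 8.19-fold higher (log2 3.03, SE 0.27, limma adjusted p 3.77e-07) and rests on 2 wild type arrays. Its size depended on how low values were treated, with a log2 difference of 2.03 when 32 was added to each intensity and 3.73 with the wild type blank set to the lowest value of its array. AT2G20870, also with 2 wild type arrays, was 5.05-fold higher with a wider error (log2 2.34, SE 0.44, limma adjusted p 0.00142), and had log2 differences of 1.55 and 3.06 under the same settings. AT4G17470 averaged 336 ± 84.9 in tga2tga3tga5tga6 and 96.7 ± 12.8 in wild type, a 3.42-fold difference (log2 1.77, SE 0.24, limma adjusted p 5.01e-05). Ranked from the highest difference in the deposited values among the 14859 probe sets, AT1G54020 stood at 3, AT3G28220 at 5, JAL23 at 6, AT2G20870 at 8 and AT4G17470 at 18.

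The second comparison set safener treated sid2-2 against the same safener treated wild type arrays, so it is not independent of the first. Only AT3G28220 and AT2G20870 passed the test, both higher, against a background of 8.94% called higher and 4.17% called lower among 14900 probe sets with a median log2 difference of 0.09. With the same centring on probe sets listed on all arrays there were 929 higher and 964 lower calls, in place of 1332 and 622. AT3G28220 averaged 191 ± 11.1 in sid2-2 and 74.7 ± 17.4 in wild type, a 2.60-fold difference (log2 1.38, SE 0.19, limma adjusted p 9.83e-05). AT2G20870 averaged 142 ± 9.97 in sid2-2 (n = 3) and 27.8 ± 2.41 in wild type (n = 2), a 5.11-fold difference (log2 2.35, SE 0.44, limma adjusted p 0.00154). With 32 added to each intensity the log2 difference of AT2G20870 was 1.54, and with the blank set to the lowest value of its array it was 3.08.

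JAL23 averaged 100.3 ± 26.8 in sid2-2 and 63.5 ± 14.4 in wild type, a log2 difference of 0.65 (95% confidence interval 0.17 to 1.12, limma adjusted p 0.0687). This call depended on single arrays: without sid2-2 safener replicate 3 the log2 difference was 0.89 (limma adjusted p 0.0183), and without wild type safener replicate 2 it was 0.81 (limma adjusted p 0.0359). For AT1G54020 the log2 difference was 0.36 (95% confidence interval -0.21 to 0.93, limma adjusted p 0.413), and 1.06, also without a call, with the wild type blank at the lowest value of its array. For AT4G17470 it was 0.35 (95% confidence interval -0.16 to 0.87, limma adjusted p 0.37). These intervals still hold differences of up to 1.90-fold for AT1G54020 and 1.82-fold for AT4G17470, so the genotypes were not shown to be alike.

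The third comparison tested the 2 safener treated mutants against each other. JAL23, AT1G54020, AT3G28220 and AT4G17470 were lower in sid2-2 than in tga2tga3tga5tga6, without overlap of the arrays, whereas 7.58% of the 15072 probe sets tested were called lower, 7.9% were called higher, and the median log2 difference was 0.02. AT1G54020 averaged 32.02 ± 9.37 in sid2-2 and 202 ± 49.4 in tga2tga3tga5tga6, 6.39-fold lower (log2 -2.68, SE 0.24, limma adjusted p 3.45e-07, and log2 -1.86 with 32 added). JAL23 was 3.86-fold lower in sid2-2 (log2 -1.95, SE 0.23, limma adjusted p 6.22e-06).

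AT4G17470 averaged 124 ± 23.9 in sid2-2 and 336 ± 84.9 in tga2tga3tga5tga6, 2.68-fold lower (log2 -1.42, SE 0.24, limma adjusted p 0.00043). AT3G28220 was 2.47-fold lower in sid2-2 (log2 -1.31, SE 0.19, limma adjusted p 8.97e-05). AT2G20870 averaged 142 ± 9.97 in sid2-2 and 157 ± 83.1 in tga2tga3tga5tga6, with a log2 difference of 0.02 (95% confidence interval -0.80 to 0.84, limma adjusted p 0.985). Its interval spans 0.57-fold to 1.79-fold, so a moderate difference either way was not detectable with 3 arrays per group.

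**Figure D2:**
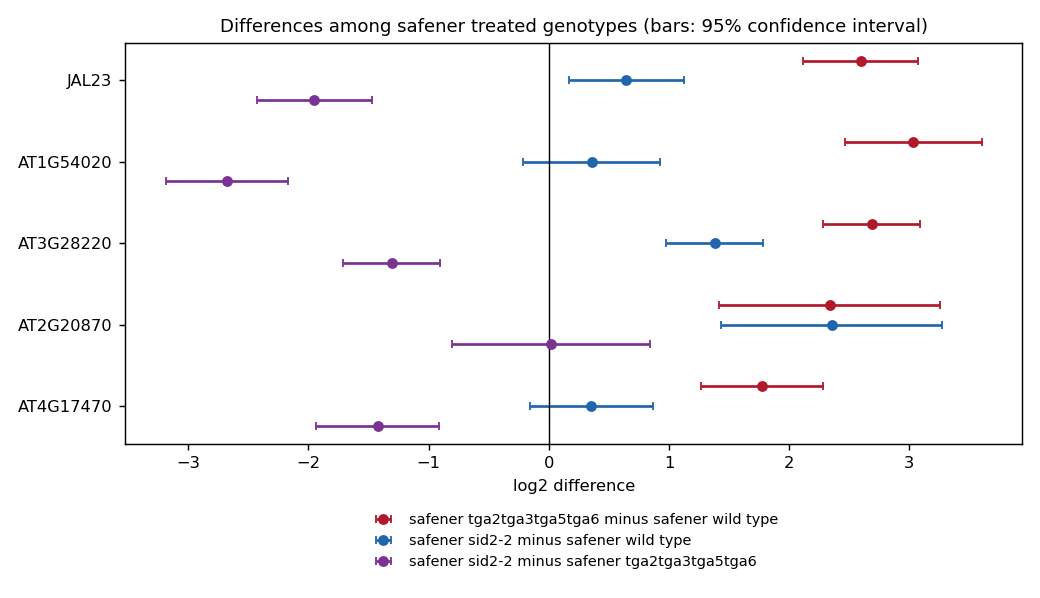
Log2 difference between safener treated genotypes for each member (horizontal axis), with 95% confidence intervals from the limma fit as bars. All 5 differences of tga2tga3tga5tga6 from wild type lie above 1, the intervals of sid2-2 minus wild type cross 0 for AT1G54020 and AT4G17470, and 4 of the 5 differences of sid2-2 from tga2tga3tga5tga6 lie below 0.

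How far safener lowered each member differed between genotypes and between members. In sid2-2 the safener treated level, as a ratio of geometric means, was 14.7% of the mock level for AT4G17470, 21.8% for AT1G54020, 24.3% for JAL23, 38.9% for AT3G28220 and 93.2% for AT2G20870. The first 4 had safener arrays wholly below the mock arrays of sid2-2, and AT2G20870 did not. How many of all probe sets lay apart in this way was not counted, so this describes the members only. The log2 response of AT2G20870 in sid2-2 (-0.10, SE 0.39) was 0.35 without sid2-2 mock replicate 2 and -0.79 with array weights. AT4G17470 had a log2 response of -2.77 (SE 0.25) in sid2-2, where 19.6% of 15222 probe sets were called lower. Choosing members for high mock levels in the mutants by itself pushes these responses down, so no rank is read from them.

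In tga2tga3tga5tga6 the same ratio of safener to mock was 42.3% for AT4G17470, 45.9% for AT2G20870, 66.9% for JAL23, 72.1% for AT1G54020 and 94.1% for AT3G28220. Only AT4G17470 and AT2G20870 had safener arrays wholly below the mock arrays, in a genotype where 10.3% of 15195 probe sets were called lower. The log2 response was -1.12 (SE 0.39) for AT2G20870 and -0.09 (SE 0.19) for AT3G28220, the second at 0.0056 without tga2tga3tga5tga6 mock replicate 3.

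In wild type the ratio was 28.6% for AT4G17470, 40.3% for JAL23, 59.6% for AT3G28220, 65.3% for AT1G54020 and 96.2% for AT2G20870, where 17.3% of 14704 probe sets were called lower. The values of AT1G54020 and AT2G20870 rest on the 2 safener arrays that list them. AT4G17470, JAL23 and AT1G54020 had no overlap between the safener and mock arrays of wild type, and AT3G28220 and AT2G20870 overlapped. The wild type log2 response of AT2G20870 (-0.06, SE 0.43) changed sign without wild type mock replicate 1 (0.12), without wild type safener replicate 1 (0.033) and with array weights (0.085).

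**Figure D3:**
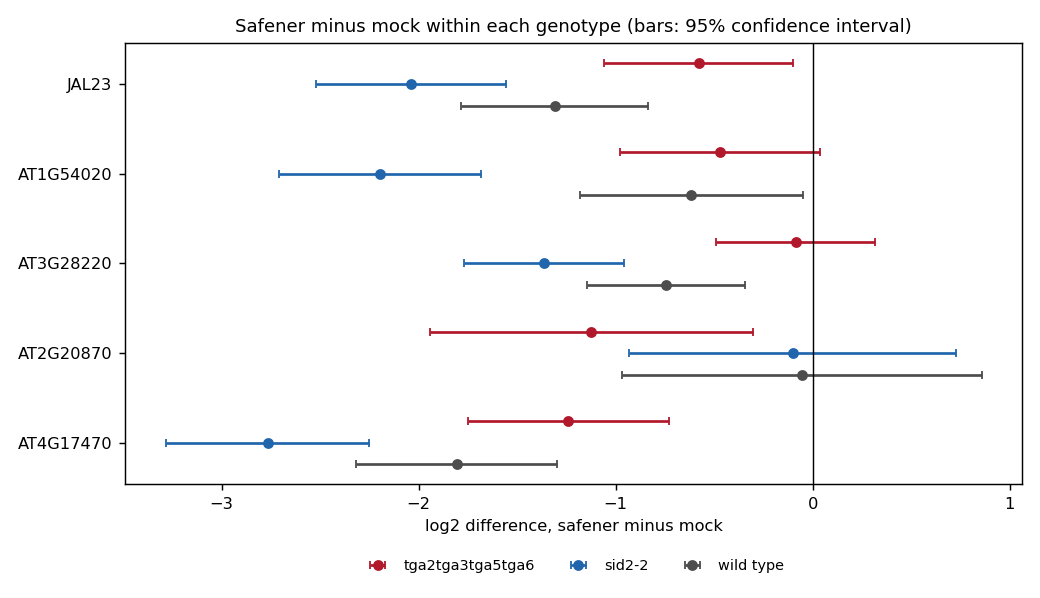
Log2 difference of safener minus mock within each genotype for each member (horizontal axis), with 95% confidence intervals as bars, given as a description because the mock arrays chose the members. For JAL23, AT1G54020, AT3G28220 and AT4G17470 the sid2-2 response is the most negative (log2 -2.04, -2.20, -1.36 and -2.77), and for AT2G20870 the tga2tga3tga5tga6 response is (log2 -1.12).

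The difference between the responses, tga2tga3tga5tga6 minus sid2-2, was 1.73 on the log2 scale for AT1G54020 (SE 0.35), 1.53 for AT4G17470 (SE 0.35), 1.46 for JAL23 (SE 0.33), 1.28 for AT3G28220 (SE 0.28) and -1.02 for AT2G20870 (SE 0.56). It was not tested, since it rests in part on the mock arrays. Against wild type, the tga2tga3tga5tga6 response of JAL23 differed by 0.73 (SE 0.33) and the sid2-2 response by -0.73 (SE 0.33), on either side of the wild type response. For AT1G54020 the tga2tga3tga5tga6 response differed from that of wild type by 0.14 (SE 0.37), while the sid2-2 response differed by -1.58 (SE 0.37). Both use a wild type response of AT1G54020 that rests on 2 safener arrays. With the blank at the lowest value of its array that response was more negative, so both differences would shift upward.

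Set against the level of mock treated wild type, the safener treated mutants ended at different places. How many of all probe sets lay apart in the same way was not counted, here or in the other comparisons. The overlaps only describe the members. In tga2tga3tga5tga6, safener treated AT1G54020 stood at 534% of the mock wild type level, AT2G20870 at 486%, AT3G28220 at 384% and JAL23 at 243%, all above the mock wild type arrays, while AT4G17470 stood at 97.7% and overlapped them. In sid2-2, safener treated AT2G20870 stood at 492% and AT3G28220 at 155%, both above the mock wild type arrays, AT1G54020 at 83.6% and overlapping, and JAL23 at 63.0% and AT4G17470 at 36.5%, both below.

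Across arrays the log2 levels of JAL23 and AT1G54020 followed each other most closely, with Pearson r 0.97 over the 17 arrays that list both. The points share arrays and group differences on which the members were chosen. Around the group means r was 0.83 for this pair, the highest of the 10 pairs, whereas JAL23 and AT3G28220 had r 0.90 over 18 arrays and 0.09 around the group means. In mock treated tga2tga3tga5tga6, replicate 3 was the highest and replicate 2 the lowest array for JAL23, AT1G54020, AT2G20870 and AT4G17470, and for AT3G28220 replicate 1 was the lowest. AT2G20870 and AT4G17470 had the lowest r over arrays, 0.52 over 17 arrays, but r 0.54 around the group means. The lowest r around the group means was -0.21, for AT1G54020 and AT3G28220.

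Among probe sets of 1 named gene listed on all arrays, 7222 or 7223 were searched for the log2 pattern most like each member, and the 3 most alike are named with no test. JAL23 was most like AT2G29670 (r 0.95), AT2G43530 (r 0.95) and AT1G23850 (r 0.95) over 18 arrays. The correlation takes no account of the size of a change. In safener treated tga2tga3tga5tga6 against wild type, AT2G29670 was 1.44-fold higher and JAL23 6.04-fold higher. AT1G54020 was most like JAL23 itself (r 0.97), then AT2G43530 (r 0.94) and AT3G53400 (r 0.93), over 17 arrays. AT1G23850 shows the shape, with mean intensities of 174 ± 18.6 under safener and 210.0 ± 38.0 under mock in tga2tga3tga5tga6, 81.8 ± 9.21 and 227 ± 21.6 in sid2-2, and 76.6 ± 11.5 and 134 ± 20.8 in wild type (SD, n = 3 each).

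AT3G28220 was most like AT4G29700 (r 0.94), AT5G02940 (r 0.93) and AT1G51805 (r 0.93). AT2G20870 was most like AT3G28500 (r 0.94), AT2G16365 (r 0.90) and AT5G02230 (r 0.87) over 17 arrays. AT4G17470 was most like AT2G20720 (r 0.95), AT4G38690 (r 0.95) and AT1G31710 (r 0.95). AT2G43530 was the 1 gene named for more than 1 member.

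JAL23 belongs to the jacalin-related lectins, and the annotation named 3 of the 7 others listed, JAL22, JAL33 and JAL34, which are also among the 6 named of 17 genes listed for ER bodies and the PYK10 complex. Like JAL23, all 3 were higher in safener treated tga2tga3tga5tga6 than in safener treated wild type (median log2 difference 1.02, against 0.05 and 8.81% called higher over all probe sets), 0 of 3 passed in limma between sid2-2 and wild type (median 0.27, against 0.09, with JAL34 as the 1 at an unadjusted p under 0.05), and all 3 were lower in sid2-2 than in tga2tga3tga5tga6 (median -0.84, against 0.02 and 7.58% called lower). JAL22 (AT2G39310), near JAL23 in locus order, had 139, 105 and 110.0 in tga2tga3tga5tga6 and 80.5, 54.2 and 63.4 in sid2-2, against 54.9, 47.2 and 58.3 in wild type, all under safener. Its log2 difference between tga2tga3tga5tga6 and wild type was 1.14 (SE 0.16, limma adjusted p 5.1e-05), smaller than that of JAL23.

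JAL34 under safener averaged 449 ± 30.4 in tga2tga3tga5tga6 and 228 ± 10.6 in sid2-2, against 273 ± 33.0 in wild type (SD, n = 3 each), with a log2 difference of 0.73 between tga2tga3tga5tga6 and wild type (limma adjusted p 6.59e-05). Its mock level in tga2tga3tga5tga6 was 453 ± 27.4, so safener and mock means lay within 1 SD of each other, as those of AT3G28220 did. JAL33 in tga2tga3tga5tga6 against wild type (log2 1.02) rests on 2 wild type arrays. Without wild type safener replicate 3, which left 1 wild type array, the log2 difference was 0.83, so its call rests on few arrays. In sid2-2 against tga2tga3tga5tga6 the call of JAL33 was lost without tga2tga3tga5tga6 safener replicate 1 or 3 or sid2-2 safener replicate 2 (limma adjusted p 0.0899 to 0.168).

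PYK10, the ER body beta-glucosidase, averaged 431 ± 40.7 in tga2tga3tga5tga6 and 275 ± 46.9 in sid2-2, against 283 ± 39.4 in wild type, all under safener. With PYK10 and NAI2, needed to form ER bodies, 5 of 5 tested genes of that list were higher in tga2tga3tga5tga6 than in wild type (median log2 0.73), against 8.81% of all probe sets (median 0.05). In limma 0 of 5 passed in sid2-2 against wild type (median 0.14, 1 at an unadjusted p under 0.05), against 8.94% higher and 4.17% lower of all (median 0.09), and 4 of 5 were lower in sid2-2 than in tga2tga3tga5tga6 (median -0.75), against 7.58% of all (median 0.02). The call of PYK10 against wild type (log2 0.61, limma adjusted p 0.0197) was lost without wild type or tga2tga3tga5tga6 safener replicate 1 or 3 (limma adjusted p 0.0534 to 0.0803), and that of NAI2 (log2 0.53, limma adjusted p 0.0274) without wild type safener replicate 1 or tga2tga3tga5tga6 safener replicate 2 or 3 (limma adjusted p 0.0586 to 0.163). The call of PYK10 between the mutants (log2 -0.66, limma adjusted p 0.0108) was lost without sid2-2 safener replicate 2 or tga2tga3tga5tga6 safener replicate 3 (limma adjusted p 0.0512 to 0.0635). PYK10 is also the root marker named, and its part in the members' differences was not tested.

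Of 31 jasmonate genes listed the annotation named 4. THI2.1, a thionin induced by jasmonate, had 361, 275 and 227 in safener treated tga2tga3tga5tga6 and 76.1, 72.4 and 54.6 in safener treated sid2-2, and no safener treated wild type array lists it. It was 4.22-fold lower in sid2-2 than in tga2tga3tga5tga6 (log2 -2.08, SE 0.25, limma adjusted p 2.46e-05), as were JAL23, AT1G54020, AT3G28220 and AT4G17470 by their own folds.

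The defensin PDF1.2, a marker of combined jasmonate and ethylene signalling, was 5.26-fold higher in safener treated tga2tga3tga5tga6 (limma adjusted p 8.65e-06) and 6.09-fold higher in sid2-2 (limma adjusted p 6.01e-06) than in wild type, and its arrays overlapped between the mutants, as those of AT2G20870 did. With PDF1.2b, a close copy whose probes may read both, and JMT, which makes methyl jasmonate, 3 of 3 tested genes were higher in each mutant than in wild type. Their median log2 difference was 1.54 in tga2tga3tga5tga6, where 8.81% of all probe sets were called higher (median 0.05), and 1.68 in sid2-2, where 8.94% were (median 0.09). JMT in tga2tga3tga5tga6 (log2 0.71, limma adjusted p 0.0216) was lost without wild type safener replicate 2 or tga2tga3tga5tga6 safener replicate 1 or 3 (limma adjusted p 0.0675 to 0.0893).

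Of 16 salicylic acid genes listed 2 were named. GRX480, a glutaredoxin that binds TGA factors, averaged 62.4 ± 9.10 in tga2tga3tga5tga6 and 207 ± 14.2 in sid2-2, against 378 ± 23.3 in wild type, all under safener. It was lower in tga2tga3tga5tga6 (log2 -2.61, limma adjusted p 6.52e-10) and in sid2-2 (log2 -0.87, limma adjusted p 0.000865) than in wild type, the reverse of the order of AT3G28220. SAG101, a partner of the immune regulator EDS1, was lower in sid2-2 than in tga2tga3tga5tga6 (log2 -0.65, limma adjusted p 0.00248), and its call against wild type in sid2-2 (log2 -0.42, limma adjusted p 0.0454) was lost without any one of 5 of the 6 arrays, wild type safener replicate 1 being the exception (limma adjusted p 0.0834 to 0.135). Among the 3 leaf markers, LHCB4.3 was higher in safener treated sid2-2 than in wild type (log2 1.07, limma adjusted p 0.000865). RCA was called higher there too (log2 0.30, limma adjusted p 0.0495). The RCA call was lost without wild type safener replicate 1 or 3 or any sid2-2 safener replicate (limma adjusted p 0.0664 to 0.204). LHCB4.2 was not called there (log2 -0.05, limma adjusted p 0.876). The part of leaf composition in the members' differences was not tested.

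**Figure D4:**
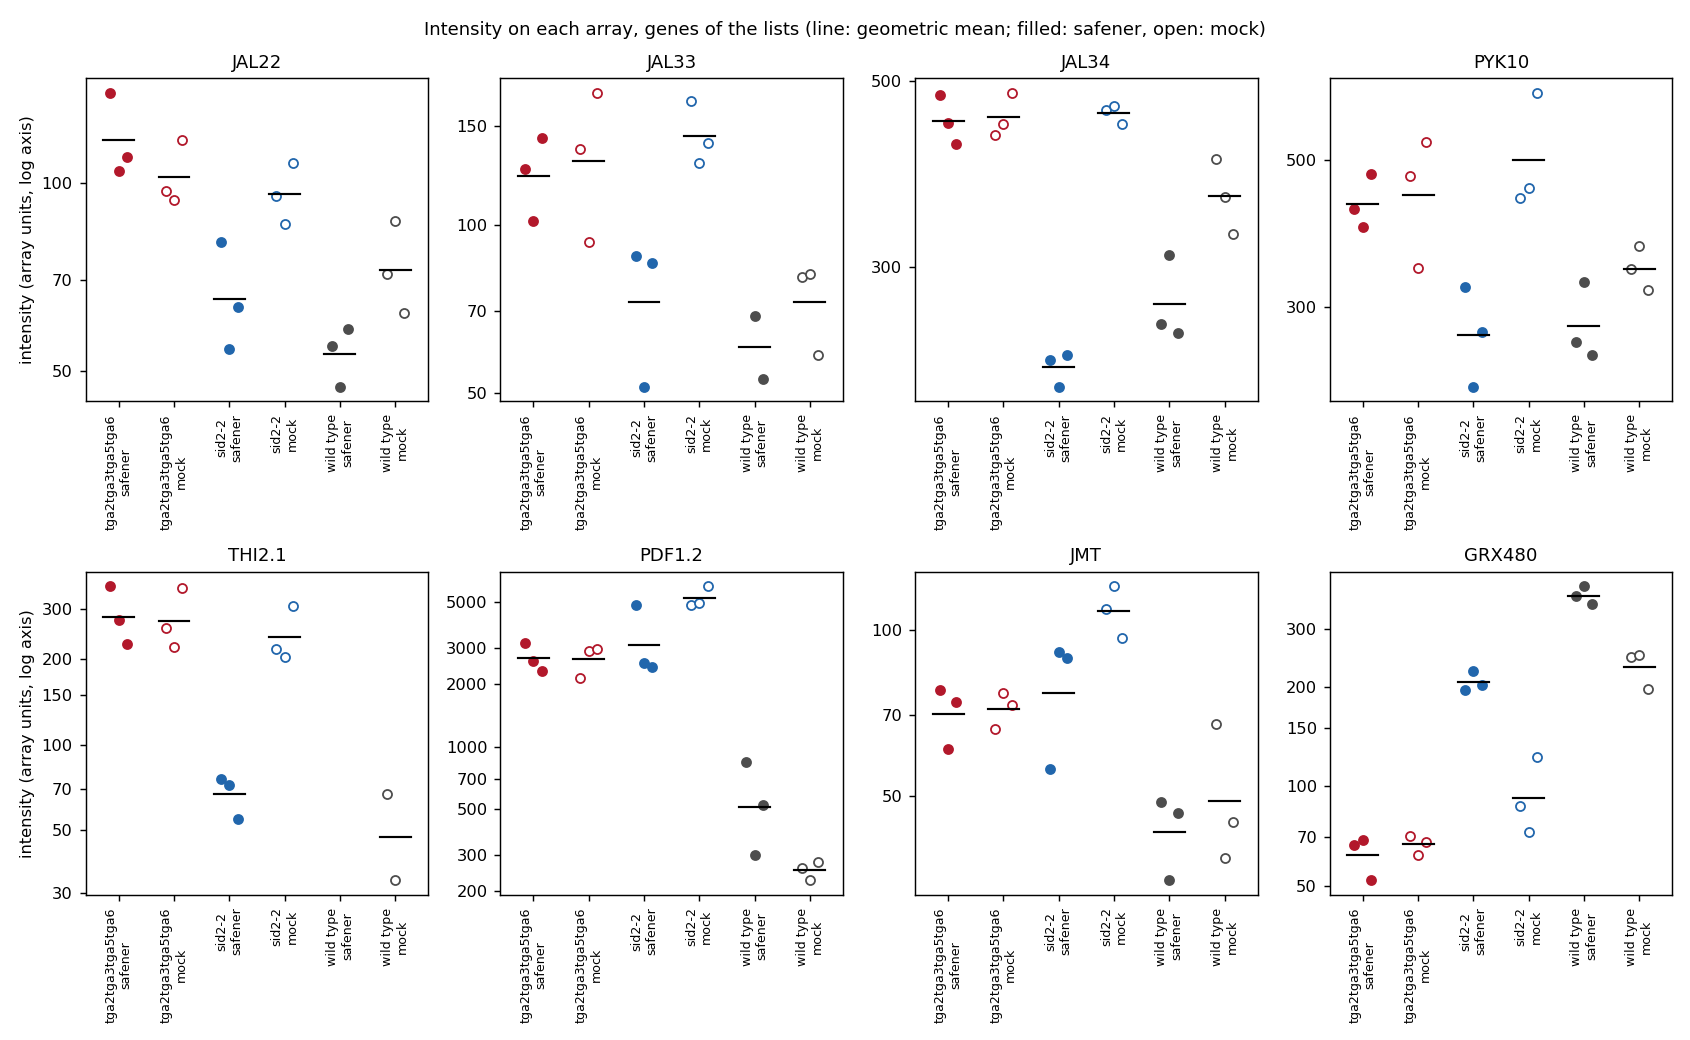
Intensity on each array (vertical log axis, array units) of 8 genes from the lists, by genotype and treatment, with filled points for safener, open points for mock and a line at the geometric mean of each group. JAL22, JAL33, JAL34, PYK10 and THI2.1 have their safener treated tga2tga3tga5tga6 points above those of sid2-2, PDF1.2 overlaps between these mutants, and GRX480 has its lowest safener points in tga2tga3tga5tga6. THI2.1 has no listed value in safener treated wild type.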

How the data were processed

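For every probe set and array the authors deposited a linear intensity. RMA is the method named in the submitters' processing notes, with no version, and a genome build is not given in the sources used here. How the blanks were set is not stated either, and whether RMA gave the values as deposited was not checked. Of 22810 probe sets, 64 array controls were left out, and blanks were kept as missing. In the annotation, 13513 probe sets had 1 gene, 503 had several and 8730 had no entry. A gene of a list with more than 1 probe set would have been read by the one with the highest mean.

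Each listed intensity was converted to log2 with no pseudocount. A model of the 6 group means was fitted to all 18 arrays with lmFit and eBayes in limma 3.58.1 (R 4.3.3), over probe sets with at least 2 listed values in each group compared, with Benjamini-Hochberg adjustment over all of them and a threshold of 0.05. Log2 errors are SE and intensity errors SD. The number of arrays limits the precision. The labels call the 3 samples of a group biological samples, without saying whether plants were pooled. All columns were used (0 were left out).

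The members and all 10 lists were chosen with earlier results of these data known, so no p over a list is given. Named are the 5 members, the 3 genes most alike to each and up to 4 genes of a list with the smallest adjusted p, with NAI2 and NAI1 added after their values were seen. The lists of GDSL lipases, TRAF or MATH domain proteins, flower markers and targeted genes had 0 members named in the annotation and were not analysed here.

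The fit was checked on simulated data, where 200 probe sets carried a known change. At a log2 change of 1 it recovered 89% of 100 for tga2tga3tga5tga6 against wild type (14859 probe sets), 95% for sid2-2 against wild type (14900) and 96% for sid2-2 against tga2tga3tga5tga6 (15072). The alternatives were other treatments of blanks, scaling, a pseudocount of 32, array weights, fewer arrays in the fit, a replicate block and leaving out each replicate.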

Additional observations from a re-analysis of the deposited data

Results flagged for a closer look

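Under safener 4 members differed between the mutants, and all had been chosen as higher in both mutants under mock. AT1G54020 already lay apart under mock, with 117, 146 and 167 in sid2-2 against 309, 196 and 341 in tga2tga3tga5tga6. The mock arrays of JAL23, AT3G28220 and AT4G17470 overlapped between the mutants. The mock treated mutants were not tested against each other. Safener treated sid2-2 minus safener treated tga2tga3tga5tga6 was -1.95 on the log2 scale for JAL23 (limma adjusted p 6.22e-06) and -2.68 for AT1G54020 (limma adjusted p 3.45e-07). It was -1.31 for AT3G28220 (limma adjusted p 8.97e-05) and -1.42 for AT4G17470 (limma adjusted p 0.00043). In each of these genes the 3 sid2-2 arrays lay below the 3 tga2tga3tga5tga6 arrays, and the cause was not tested.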

How the results depend on the processing

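The fit was repeated under 8 alternatives and with each of 6 arrays left out per comparison. In safener treated tga2tga3tga5tga6 against wild type all 5 members stayed called and higher in every setting run, with a highest limma adjusted p of 0.0197 (AT2G20870). So did AT3G28220 and AT2G20870 in sid2-2 against wild type. JAL23, AT1G54020, AT3G28220 and AT4G17470 in sid2-2 against tga2tga3tga5tga6 stayed called and lower. AT1G54020 and AT2G20870 had no value where a listed value on all arrays was required. Array weights raised the calls in tga2tga3tga5tga6 against wild type to 3248 higher and 1831 lower, in sid2-2 against wild type to 2822 and 1216, and in sid2-2 against tga2tga3tga5tga6 to 1855 higher. Median centring gave 970 and 964 lower calls in the comparisons of tga2tga3tga5tga6 and sid2-2 with wild type. Fitting sid2-2 and wild type arrays alone gave 778 higher calls.

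With an array left out, the calls ranged from 687 to 1587 higher and 425 to 550 lower in tga2tga3tga5tga6 against wild type, where the lowest count was without wild type safener replicate 1. They ranged from 739 to 1627 higher and 450 to 537 lower in sid2-2 against wild type, and from 804 to 1069 higher and 768 to 1034 lower between the mutants. In sid2-2 against wild type, JAL23 ranged from 0.48 to 0.89. With array weights JAL23 (log2 0.68, limma adjusted p 0.0139) and AT1G54020 (log2 0.66, limma adjusted p 0.0329) were called there. AT2G20870 in sid2-2 against tga2tga3tga5tga6 changed sign at -0.0050 with median centring, -0.015 with 32 added and -0.15 with array weights, and ranged from -0.47 to 0.40 with an array left out. It was called in none of these.

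Adding 32 to the values gave log2 mock differences of 2.15 and 1.34 for AT1G54020 and 2.47 and 1.62 for AT2G20870, in tga2tga3tga5tga6 and sid2-2. It gave sid2-2 responses of -1.46 for AT1G54020 and -2.48 for AT4G17470, and wild type responses of -0.98 for JAL23 and -0.29 for AT1G54020. Array weights gave 3.19 for AT2G20870 in mock sid2-2 and -1.57 for the sid2-2 response of AT3G28220. With blanks at the lowest value of their array, the wild type responses were -1.32 for AT1G54020 and -0.78 for AT2G20870, and with an array left out that of AT1G54020 ranged from -0.93 to -0.30 and that of AT2G20870 from -0.17 to 0.12. The sid2-2 response of AT2G20870 ranged from -0.61 to 0.35. The cause was not tested.

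Over all settings, list genes with a call kept it 293 times and lost it 40 times, and those without one gained it 6 times, with JAL34 called lower in sid2-2 against wild type under median centring (log2 -0.32, limma adjusted p 0.043). With blanks at the lowest value, JAL33, PYK10, NAI2 and JMT were no longer called in tga2tga3tga5tga6 against wild type (limma adjusted p 0.0635 to 0.0745). Among list genes, all without a call, signs changed in sid2-2 against wild type for PYK10 (0.022 with array weights, -0.16 to 0.084 with an array left out), NAI2 (-0.0056 with array weights, -0.031 to 0.25) and LHCB4.2 (-0.22 to 0.095). Between the mutants they changed for PDF1.2 (-0.11 to 0.39) and PDF1.2b (-0.040 to 0.27).

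Replicate numbers did not pair the arrays, since the deviations of same-numbered arrays correlated above 0.1 in 8 of 24 pairs and never in all 3 pairs of a comparison. With the replicate block the counts were 1248 higher and 599 lower, 1258 and 602, and 1127 and 1127 in the 3 comparisons. JAL23 in tga2tga3tga5tga6 against wild type was 2.59 (limma adjusted p 1.32e-06), and RCA in sid2-2 against wild type was no longer called (limma adjusted p 0.0591), with no other call among members and list genes changed. Intensities near the lowest listed values, as for AT1G54020 and AT2G20870 in wild type, limit their folds.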

Other observations

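NAI1, the transcription factor needed to form ER bodies, was listed on 5 of the 18 arrays. It had 53.7 and 54.8 on 2 safener treated tga2tga3tga5tga6 arrays, 46.8 and 51.3 on 2 mock treated tga2tga3tga5tga6 arrays and 66.1 on 1 mock treated sid2-2 array. It was blank on all safener treated sid2-2 arrays and on all wild type arrays. With so few values it was in none of the 3 comparisons, and a blank is not a measured absence.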
